A study of Rattus norvegicus with 30 samples.

Results

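Brain RNA of HIP vs. WT rats was compared in the libraries that carried neither cerebellar nor pineal RNA. HIP rats express human amylin, which forms amyloid, in pancreatic β-cells, and the WT rats express only their own rat amylin. Both groups were male, fed a normal diet, and 15 to 16 months old, and the sample annotation gives frontal cortex as the tissue. The libraries were chosen by their own expression values: from the 20 HIP and WT libraries among 30 in the series, every library with more than 100 normalized counts of Gabra6 or of Tph1 was left out. This kept 17 libraries, 8 from HIP and 9 from WT rats, each from 1 rat. Counts and tests below use these 17 unless stated otherwise, levels are DESeq2-normalized counts, and means are given ± SD over 8 HIP and 9 WT rats. A log2 fold change is the HIP minus the WT mean of log2(normalized count + 1), given ± SE.

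Amylin is a β-cell hormone that is released with insulin and acts in the brain on receptors made of the calcitonin receptor and a RAMP protein. Human amylin aggregates into fibrils, while rat amylin does not, which is why human amylin has to be introduced into the β-cells of the HIP rat to model pancreatic amyloid. The transgene is driven in the pancreas, so the brain is exposed to the peptide through the blood, and the rats also develop type-2 diabetes, so an effect of amylin and one of high glucose cannot be told apart here. Frontal cortex is rich in glutamatergic projection neurons, many of which use Tbr1, with GABA neurons, glia and vessels around them. In bulk RNA, fewer cells of a type and less RNA per cell cannot be told apart.

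Gabra6, a GABA-A receptor subunit of cerebellar granule cells, reached 17979 normalized counts in WT rat 10RT43 and 1564 in HIP rat 12RT23. Tph1, the tryptophan hydroxylase of the pineal gland, reached 19081 in HIP rat 10RT46. These 3 libraries were left out. Among those kept, the highest Gabra6 value was 14.6, in WT rat 10RT44, and the highest Tph1 value was 7.58, in WT rat 10RT51. No library lay near the limit, and limits of 30 or 1000 normalized counts kept the same 17 libraries. Rat 10RT43 had 16.7 normalized counts of Tbr1, a transcription factor of cortical projection neurons, whereas the kept libraries held 1439 to 3190. Rat 10RT46 also carried 14881 normalized counts of Ttr, the transthyretin of choroid plexus, against at most 10.7 in any kept library.

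**Figure D1:**
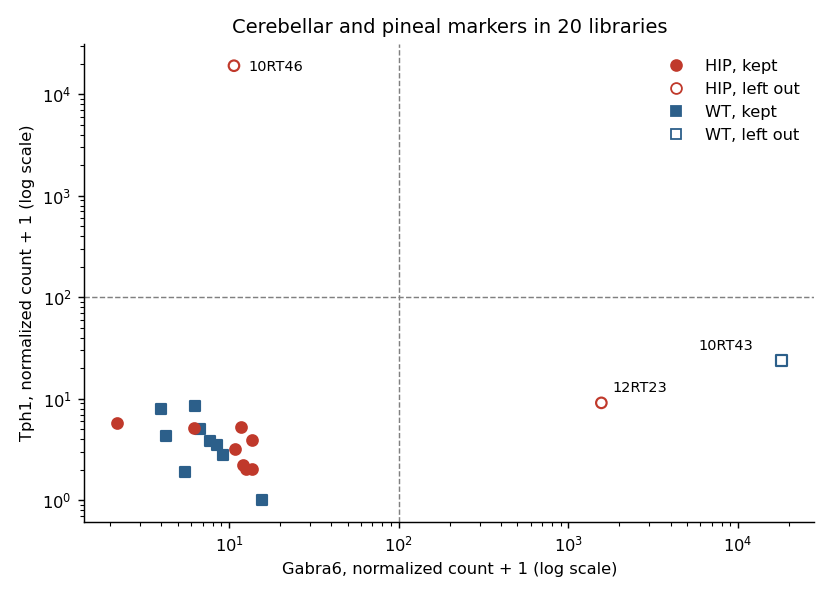
Gabra6 (x axis) and Tph1 (y axis) in the 20 HIP and WT libraries, as normalized count + 1 on log scales; dashed lines mark the limit of 100 normalized counts. The 17 kept libraries sit at or under 14.6 for Gabra6 and 7.58 for Tph1, and the 3 libraries left out lie far beyond one limit each.

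The kept libraries were not uniform cortex. Genes of neocortical excitatory neurons had similar mean log2 values in both groups (9.92 to 10.26 in HIP, 9.82 to 10.28 in WT), but a list of 16 striatal genes, led by the dopamine and adenosine receptors of medium spiny neurons, ranged from 6.54 to 8.75 in HIP and from 6.57 to 9.41 in WT rats. The dopamine receptor gene Drd2 ranged from 39.8 in HIP rat 10RT48 to 772 in WT rat 10RT55. A list of 7 olfactory bulb genes ranged from 3.16 to 8.64 in HIP and from 3.28 to 9.62 in WT rats, and Doc2g, a gene of that list, from 55.5 to 1086 normalized counts. Rats 10RT53, 10RT49 and 10RT37 (HIP) and 10RT51, 10RT50 and 10RT57 (WT) were high for the bulb list, and 10RT54 and 10RT41 (HIP) and 10RT55, 10RT39, 10RT45 and 10RT47 (WT) for the striatal list. The ranges of the groups overlapped on both lists. For these reasons the libraries are called here by the rule, and not clean cortex. The part of dissection in the results below was not tested beyond a fit with both list means as covariates.

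Depth differed between the groups. The estimated reads per library ranged from 13.7 to 16.7 M in HIP rats (median 15.7, mean 15.4 ± 1.06) and from 16.3 to 21.2 M in WT rats (median 19.2, mean 19.1 ± 1.81). HIP libraries were lower by 3.72 M reads (exact permutation test, two-sided, p = 0.000247), and 2 HIP libraries exceeded the shallowest WT library. Group membership held 63.8% of the variance of log2 reads, so depth and genotype can hardly be told apart in any single gene, and with reads as a covariate the SE of a gene grew 1.69-fold (median).

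**Figure D2:**
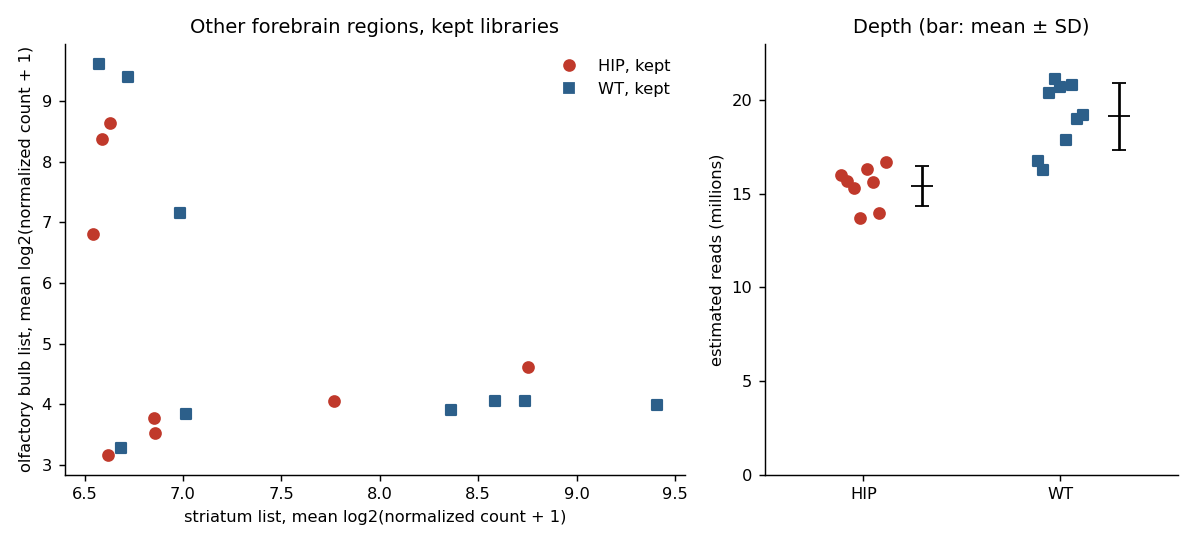
Left, mean log2(normalized count + 1) of the striatum list (x axis) and of the olfactory bulb list (y axis) in the 17 kept libraries; right, estimated reads per library (M), with mean ± SD. Libraries of both genotypes reach over 8 on either list axis, and the HIP libraries (13.7 to 16.7 M) are mostly shallower than the WT libraries (16.3 to 21.2 M).

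No gene of the 16978 tested passed a Benjamini-Hochberg adjusted p of 0.05 (limma; 0% called, smallest adjusted p = 0.9997). At an unadjusted p under 0.05, 642 genes (3.78% of those tested) were called, 269 higher in HIP (1.58%) and 373 lower (2.20%). At this threshold 849 genes are expected where no gene differs. A limma fit of estimated reads with voom weights called 613 genes at this threshold and 0 after adjustment. Of the 642 genes, 39 were higher and 66 lower by at least 1.5-fold, and the median log2 fold change of all tested genes was 0.00. In no gene were all 8 HIP values above, or all below, all 9 WT values. The unadjusted calls are therefore given below as descriptions of these rats.

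The data bounded most differences closely in the fit without covariates. These intervals take no account of depth, and with reads as a covariate the SE of a gene grew 1.69-fold (median). The half-width of the 95% confidence interval of the log2 fold change was 0.22 at the median, and the interval lay within a 1.5-fold change either way for 13175 genes (77.6%) and within 2-fold for 15564 (91.7%). Precision followed expression level: among 11512 genes with a mean of at least 100 normalized counts, 96.0% had an interval within 1.5-fold, against 2.36% of the 1611 genes with a mean under 10.

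Among genes higher in HIP, the smallest p belonged to Gabrr2, the rho 2 subunit of the GABA-A receptor. It ranged from 20.3 to 37.6 normalized counts in HIP rats (median 28.4) and from 11.9 to 23.8 in WT rats (median 17.1). All 8 HIP rats lay above the WT median, and the groups overlapped between 20.3 and 23.8 (log2 fold change 0.70 ± 0.16, unadjusted p = 0.000254). Sdr42e1, of the short-chain dehydrogenase family, ranged from 88.8 to 146.4 in HIP (median 124) and from 52.9 to 143.2 in WT (median 71.2). Its WT maximum came from rat 10RT50, and the next WT value was 96.3. The log2 fold change of Sdr42e1 was 0.68 ± 0.17 (p = 0.000601). Spg7, which encodes the mitochondrial protease paraplegin, was at 848 ± 61.5 in HIP vs. 717 ± 63.2 in WT (0.24 ± 0.06, p = 0.000839).

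The other genes with the smallest p values in this direction had log2 fold changes of 0.17 to 0.55, except Rexo5. Papolg, a poly(A) polymerase, was at 338 ± 24.0 vs. 286 ± 27.6 (0.24 ± 0.07), and Mta3, a subunit of the NuRD chromatin complex, at 2171 ± 118 vs. 1934 ± 117 (0.17 ± 0.05). Thrb, the thyroid hormone receptor β, was at 2054 ± 187 vs. 1796 ± 131.5 (0.19 ± 0.06), and Fam81a at log2 fold change 0.19 ± 0.05. Pibf1, a centrosomal protein gene, had a log2 fold change of 0.31 ± 0.09, Ccdc18 of 0.55 ± 0.16 and Rexo5, an RNA exonuclease, of 1.001 ± 0.31 at no more than 9.43 normalized counts in any rat. Unadjusted p values of these 7 genes ran from 0.00169 (Papolg) to 0.00393 (Thrb). Each of the 8 HIP rats exceeded the WT median for all of them except Pibf1, with 6 of 8.

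The next genes had log2 fold changes of 0.69 to 1.11, and all but Cpxm2 had means under 100 normalized counts. Cpxm2, a carboxypeptidase-like secreted protein, ranged from 149.3 to 202 in HIP (median 172) and from 56.1 to 218 in WT (median 87.8). The HIP rats lay close together, and the WT rats spread across and beyond their range (0.69 ± 0.23, p = 0.00703). Gapt, an adaptor of immune cells, reached 57.6 in HIP rat 10RT48 with 15.7 as the next HIP value, and ranged from 1.91 to 10.6 in WT (1.11 ± 0.38, p = 0.00962). Prg4, the lubricant proteoglycan lubricin, was at 53.5 ± 14.9 vs. 33.5 ± 17.2 (0.78 ± 0.27) and Dtl, a substrate receptor of a ubiquitin ligase, at 20.7 ± 6.41 vs. 12.8 ± 7.87 (0.75 ± 0.27). Mypn, the sarcomeric protein myopalladin, was at 15.1 ± 6.53 vs. 8.76 ± 3.29 (0.71 ± 0.28), and Chrm5, the M5 muscarinic receptor, at 9.88 ± 2.15 vs. 5.99 ± 4.31 (0.90 ± 0.36). Ranges of the groups overlapped for each of these genes.

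Among genes lower in HIP, Agt had the smallest p. It encodes angiotensinogen, the precursor of the angiotensins, which astrocytes make in brain. Agt ranged from 951 to 1781 in HIP (median 1341) and from 1540 to 2338 in WT (median 1830), and all 8 HIP rats lay below the WT median (-0.44 ± 0.10, p = 0.000455). Ccdc88c, which encodes the Dishevelled-binding protein Daple, ranged from 217 to 265 in HIP (median 240.0) and from 256 to 353 in WT (median 296). Its groups overlapped between 256 and 265 (-0.29 ± 0.07, p = 0.000497). Metrn, the secreted glial protein meteorin, was at 675 ± 100.6 vs. 852 ± 118 (-0.34 ± 0.09, p = 0.00174).

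Rpgrip1, a protein of the photoreceptor and primary cilium, had at most 3.94 normalized counts in HIP (median 1.34) and 2.37 to 7.4 in WT (median 4.53), which amounts to a few reads per library (-1.47 ± 0.36, p = 0.000565). B9d2, of the ciliary transition zone, was at 321 ± 35.4 vs. 387 ± 29.2 (-0.27 ± 0.07, p = 0.000897). Bcam, a laminin-binding adhesion molecule, was at 389 ± 42.9 vs. 479 ± 62.3 (-0.30 ± 0.08, p = 0.00149), and WT rat 10RT44 had its top value, 633. Cdh22, a cadherin, was at 946 ± 96.3 vs. 1079 ± 84.6 (-0.19 ± 0.06, p = 0.00716). Naa80, the actin N-acetyltransferase, had a log2 fold change of -0.36 ± 0.10, Zfr2 of -0.21 ± 0.06 and Chadl of -0.30 ± 0.08. Marchf11, a membrane ubiquitin ligase, ranged from 28.8 to 56.9 in HIP and from 48.99 to 84.9 in WT (-0.54 ± 0.15, p = 0.00197). Rapsn, which clusters acetylcholine receptors, did not exceed 4.41 in HIP or 9.02 in WT (-0.80 ± 0.27, p = 0.00803).

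P2ry1, an ADP receptor, was the 1 of 10 adenosine and purine receptor genes called, beside 3.78% of all tested genes. It ranged from 25.2 to 56.2 in HIP (median 32.5) and from 23.8 to 71.2 in WT (median 52.9), and 7 of 8 HIP rats lay below the WT median (-0.59 ± 0.20, p = 0.00822). The largest decreases among genes with a mean of at least 10 and an unadjusted p under 0.05 were those of Adamts9, a secreted metalloprotease (28.3 ± 16.8 vs. 47.7 ± 24.0, -0.78 ± 0.31), Actg2, a smooth muscle actin (9.71 ± 3.77 vs. 17.1 ± 7.44, -0.74 ± 0.30), Clec3b, tetranectin (32.4 ± 12.0 vs. 55.5 ± 24.8, -0.73 ± 0.25), Il18 and Tusc1 (12.0 ± 4.99 vs. 18.7 ± 5.65, -0.68 ± 0.27). Their p values ran from 0.0089 (Clec3b) to 0.0242 (Actg2). HIP and WT ranges overlapped widely in these genes.

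**Figure D3:**
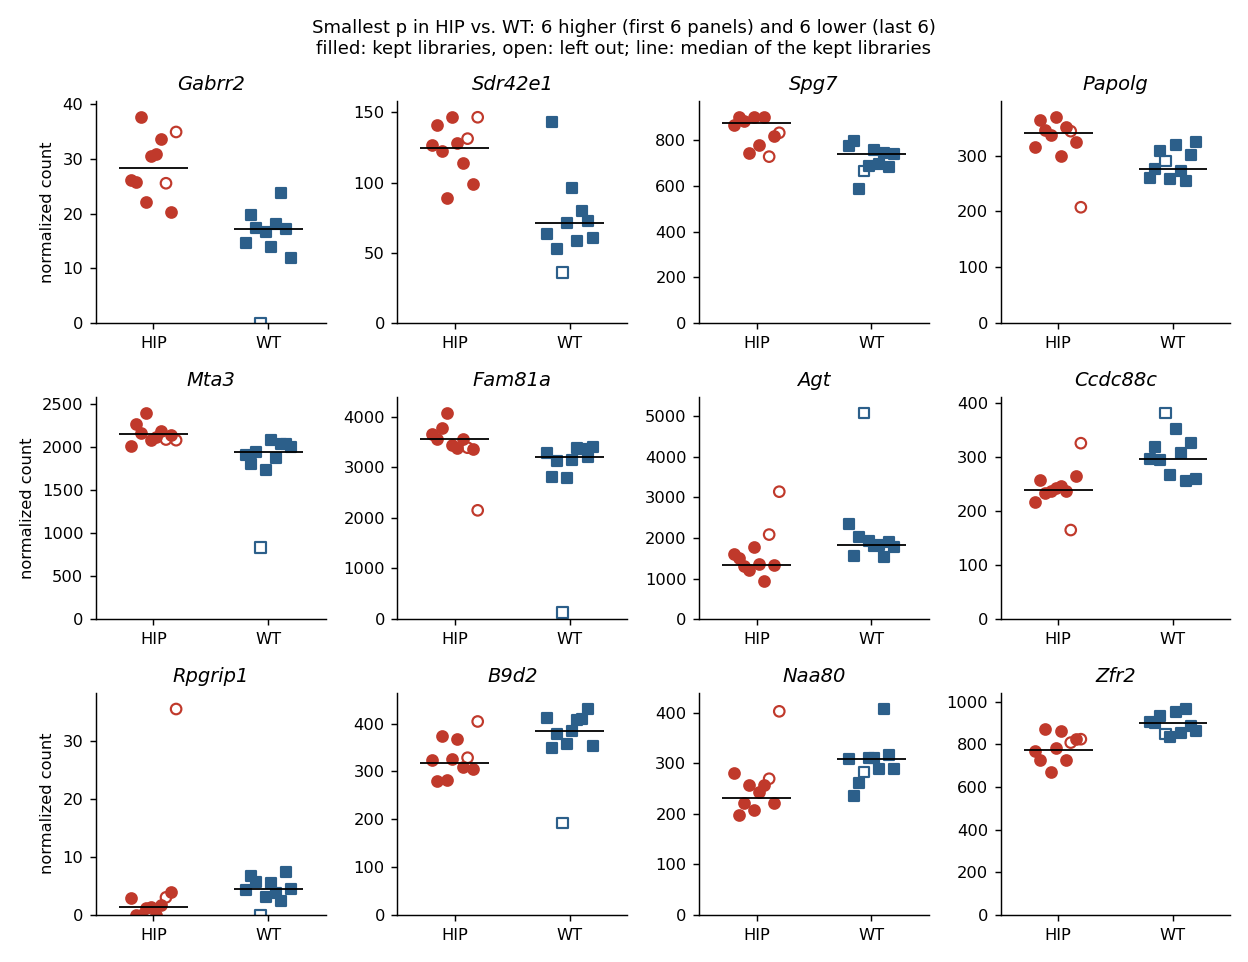
Normalized counts by rat for the 6 genes higher and the 6 genes lower in HIP with the smallest p; circles are HIP and squares WT rats, filled where kept and open where left out, and lines are medians of the kept rats. Kept groups are shifted but overlap in every panel, as for Gabrr2 (20.3 to 37.6 vs. 11.9 to 23.8), and open symbols lie far from the rest in several panels.

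Some contractile genes of vessel walls were called, all of them lower in HIP. Of 12 genes of pericytes and smooth muscle, 3 were called and 9 were not, beside 2.20% of all tested genes called lower, and the median log2 fold change was -0.14, beside 0.00 for all tested genes. Tagln, the smooth muscle protein transgelin, ranged from 417 to 714 in HIP (median 577) and from 484 to 1005 in WT (median 778), with all 8 HIP rats below the WT median (-0.38 ± 0.14, p = 0.0162). Acta2, the α-actin of smooth muscle, was at 334 ± 74.6 vs. 451 ± 132.1 (-0.41 ± 0.18, p = 0.0367) and Cspg4, the NG2 proteoglycan of pericytes and oligodendrocyte precursors, at 328 ± 23.02 vs. 365 ± 39.8 (-0.15 ± 0.07, p = 0.0392). Acta2 and Actg2 share much of their coding sequence, and reads may be split between them. The pericyte genes Rgs5 and Pdgfrb had log2 fold changes of 0.00 and 0.03. None of 16 genes of blood-brain barrier endothelium was called (median -0.02), and the intervals of 15 of them lay within 1.5-fold. With the striatum and bulb list means as covariates, 6 of the 12 pericyte and smooth muscle genes were called lower, in a fit that called 6.99% of all genes (1186). With estimated reads as the covariate none of the 12 was called lower and 1 was called higher (Tagln -0.19, p = 0.437; Acta2 -0.32, p = 0.317), and with all 20 libraries none was called.

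Of 15 genes of the unfolded protein response, by which cells answer misfolded protein in the endoplasmic reticulum, 4 were called, all lower in HIP (median -0.06), beside 2.20% of all tested genes called lower. Sdf2l1, a partner of the chaperone BiP, ranged from 81.8 to 152.9 in HIP (median 108) and from 116 to 212 in WT (median 137.8; -0.40 ± 0.14, p = 0.0113). Ddit3, the stress transcription factor CHOP, was at 276 ± 40.9 vs. 322 ± 31.9 (-0.23 ± 0.09, p = 0.0161). Calr, calreticulin, was at 6744 ± 742 vs. 7508 ± 452 (-0.16 ± 0.06, p = 0.021) and Hspa5, BiP itself, at 4682 ± 749.5 vs. 5396 ± 727 (-0.21 ± 0.10, p = 0.0406). For Hspa5 the values spread from 3778 to 5845 in HIP and from 4362 to 6587 in WT, so most of each range was shared. Of the remaining 11 genes, the transcription factors Atf4 and Xbp1 had log2 fold changes of 0.07 and -0.11. With reads as a covariate, none of the 15 genes was called.

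Hypoxia and oxidative stress genes were called in small numbers, all lower, beside 2.20% of all tested genes called lower. Of 24 genes of the hypoxia response and glycolysis, 2 were called, both lower (median 0.01): Hyou1, an endoplasmic reticulum chaperone (2081 ± 144.6 vs. 2254 ± 130.1, -0.12 ± 0.05, p = 0.0296), and Hmox1, heme oxygenase 1 (78.6 ± 21.7 vs. 97.7 ± 17.9, -0.34 ± 0.15, p = 0.039). The intervals of 22 of the 24 lay within 1.5-fold. Of 15 oxidative stress genes, 2 were called lower, Hmox1 again and Sod1, the cytosolic superoxide dismutase (1259 ± 82.0 vs. 1394 ± 138.01, -0.14 ± 0.06, p = 0.0285). With estimated reads as a covariate no gene of either list was called. With all 20 libraries Hyou1 was called (p = 0.0406), but Hmox1 and Sod1 were not (p = 0.0502 and 0.303). With the striatum and bulb list means as covariates Hyou1 and Hmox1 kept the call (p = 0.0322 and 0.0192), and Sod1 did not (p = 0.0671).

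The calls among ribosomal and respiratory chain genes were of small size and mostly lower in HIP. Of 75 cytosolic ribosomal protein genes, 10 were called, all lower, beside 2.20% of all tested genes, and 69 of 75 log2 fold changes were below 0, with a median of -0.08. Rpl37 was at 2029 ± 157.04 vs. 2252 ± 199 (-0.15 ± 0.06, p = 0.0225), Rpl8 at 3892 ± 272 vs. 4283 ± 325 (-0.14 ± 0.06, p = 0.0226) and Rps16 at 3143 ± 223 vs. 3513 ± 412 (-0.16 ± 0.07, p = 0.0316). Rps10l1 ranged from 1113 to 1647 in HIP and from 1583 to 1860.2 in WT (-0.23 ± 0.06, p = 0.00153). It has a close copy in Rps10, and ribosomal genes have many pseudogenes, so their counts are uncertain. Of 66 nuclear-encoded respiratory chain genes, 4 were called lower and 1 higher (median -0.06, with 57 below 0), and the intervals of all 66 lay within 1.5-fold. The complex I subunit Ndufs7 was at 1423 ± 93.9 vs. 1579 ± 84.1 (-0.15 ± 0.05, p = 0.00524), and Ndufa13 had a log2 fold change of -0.14 ± 0.06. Sdhc, of complex II, was at 1706 ± 124 vs. 1869 ± 109 (-0.13 ± 0.05, p = 0.0183), and Ndufa5, of complex I, was higher (1729.6 ± 71.2 vs. 1619 ± 90.5, 0.10 ± 0.04, p = 0.0388). With reads as a covariate the medians of both lists moved to -0.01 and -0.03 and no gene of either was called.

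Few neuronal and glial genes were called, beside 3.78% of all tested genes. Neurod6, a transcription factor of cortical projection neurons, was the 1 of 17 neocortical excitatory genes called (1311 ± 190.2 vs. 1127 ± 185, 0.22 ± 0.10, p = 0.0371), and the median of the list was -0.02. Slc32a1, the vesicular GABA transporter, was the 1 of 14 genes of GABA neurons called (1651 ± 309.8 vs. 1982 ± 264, -0.28 ± 0.10, p = 0.0146). Slc32a1 is also used by striatal and bulb GABA neurons, and those lists varied among these libraries. All 16 striatal genes had a log2 fold change below 0 (median -0.50), none of them called. With the striatum and bulb list means as covariates Slc32a1 had -0.24 (p = 0.0106), and with estimated reads -0.15 (p = 0.388). The cause was not tested. Of 16 genes of myelin and oligodendrocytes, Olig1, a transcription factor of the lineage, was called (1572 ± 139.2 vs. 1798 ± 196, -0.19 ± 0.07, p = 0.0101), 14 of 16 log2 fold changes were below 0 (median -0.11), and all intervals lay within 1.5-fold. None of 15 astrocyte genes was called. Sqle, squalene epoxidase of cholesterol synthesis, was the 1 of 14 genes of its list called (1219 ± 96.5 vs. 1116 ± 88.7, 0.13 ± 0.06, p = 0.0375).

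Genes of amylin and CGRP receptors and ligands were analysed in part. Of the amylin receptor itself, the calcitonin receptor with a RAMP protein, only Ramp3 was among them. Calcrl, the calcitonin receptor-like receptor, ranged from 77.9 to 135.7 in HIP and from 78.0 to 143.2 in WT (log2 fold change 0.03, 95% interval -0.22 to 0.28). Ramp3, a receptor partner protein that shapes amylin and adrenomedullin receptors, ranged from 163 to 236 in HIP and from 126 to 247 in WT (0.05, -0.18 to 0.29). The peptide genes Calca, of CGRP, and Adm, of adrenomedullin, had log2 fold changes of -0.21 (-0.94 to 0.53) and -0.06 (-0.43 to 0.32). None was called, and the ranges of the groups lay over each other. Adm2 did not reach a mean of 1, and Calcr, Ramp1, Ramp2, Crcp, Calcb and Iapp are not analysed here. None of 19 insulin signalling genes was called (median 0.00).

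Aβ-related genes were closely bounded in the fit without covariates. Of 28 genes of Aβ production, transport and breakdown, 1 was called, beside 3.78% of all tested genes, and the intervals of 26 lay within 1.5-fold. App, the Aβ precursor, was at 29142 ± 3622 vs. 29299 ± 4363 (0.00, 95% interval -0.21 to 0.21) and Lrp1, an Aβ efflux receptor, at 5694 ± 577 vs. 6015 ± 1078 (-0.07, -0.26 to 0.13). Abcb1b, a P-glycoprotein gene, was at 579.6 ± 94.5 vs. 584 ± 110.2 (-0.01, -0.26 to 0.25). With the striatum and bulb list means as covariates, 3 of the 28 genes were called, all lower, in a fit that called 6.99% of all genes. Lrp1 was among them (-0.15, p = 0.0499). With estimated reads as the covariate none of the 28 was called. Apoe, the apolipoprotein of astrocytes and microglia, ranged from 30774 to 46284 in HIP (median 38669) and from 37562 to 51237 in WT (median 43762; -0.20 ± 0.09, p = 0.0305). Apoe was also the 1 gene called among 12 tested of a list drawn from proteins that the paper assays or discusses.

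The other genes of that list differed by less than their spread. Gfap, the intermediate filament of astrocytes, was at 7518 ± 2527 vs. 8479 ± 3135 (-0.18, 95% interval -0.65 to 0.29). Il1b, interleukin-1β, ranged from 0 to 8.38 in HIP and from 0.915 to 8.59 in WT, with an interval of -0.55 to 1.32 that does not bound a 2-fold change. Arg1 and Arg2, the arginases, were at 55.03 ± 19.004 vs. 64.0 ± 30.1 and 78.5 ± 16.2 vs. 73.3 ± 15.6. Cd14, a monocyte co-receptor, was at 16.2 ± 9.91 vs. 17.1 ± 5.40 and Itgam, an integrin of microglia and monocytes, at 179 ± 88.6 vs. 171 ± 29.9. Apoa1, Cldn5 and Abcb1a of that list are not analysed here.

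The values of many immune genes depended on 1 HIP rat. Rat 10RT48 had 259.7 normalized counts of Cd68, a lysosomal protein of phagocytes, where the other HIP rats ranged from 17.3 to 48.4 and the WT rats from 29.3 to 43.9. In the same rat Cd74, the invariant chain of MHC class II, was at 8776 against at most 469 in the other HIP rats and 575 in WT, and C3, the central complement component, at 2692 against at most 429.8 and 602. Nlrp3, the inflammasome sensor, was at 103 in that rat against at most 32.4 and 59.8. For the brain macrophage list, the mean log2 value of that rat was 5.81, within the WT range of 5.21 to 6.10. With all 8 HIP rats, no gene was called among 18 of microglia, 10 of MHC class II, 14 of complement or 7 of brain macrophages, and the medians were -0.01, 0.05, 0.06 and -0.26. Of 24 interleukin and inflammasome genes, Il18 (13.9 ± 8.86 vs. 21.3 ± 5.61, -0.72 ± 0.26, p = 0.0125) and Nfkbid (20.1 ± 5.93 vs. 28.5 ± 8.37, -0.48 ± 0.20, p = 0.0282) were called, both lower in HIP, beside 2.20% of all tested genes called lower. With the striatum and bulb list means as covariates, 4 of the 7 brain macrophage genes were called lower (median -0.39), in a fit that called 6.99% of all genes. The same fit called 1 of the 24 interleukin and inflammasome genes higher and 2 lower. It called no gene of microglia, MHC class II or complement.

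Without rat 10RT48, more immune genes were called between the remaining 7 HIP rats and the 9 WT rats. Unadjusted p fell under 0.05 for 7 of 18 microglial genes, 3 of 10 MHC class II genes, 3 of 14 complement genes (2 of them also on the microglial list), 2 of 7 macrophage genes and 5 of 24 interleukin and inflammasome genes, all lower in HIP, in a fit that called 668 of 16970 genes (3.94%), 408 of them lower (2.40%), and 0 after adjustment. Rat 10RT48 was left out for its high values of these same genes, which by itself lowers the HIP means, while all 9 WT rats stayed in. The p values of this fit are therefore descriptions and not a test of a lower level in HIP. The genes named here were chosen after their values were seen. Csf1r, the growth factor receptor of microglia, ranged from 1044 to 1393 in these 7 HIP rats (median 1256) and from 1285 to 1657 in WT (median 1421; -0.21 ± 0.06, p = 0.00408). C1qb, a subunit of the complement starter C1q, ranged from 461 to 618 and from 497 to 798 (-0.26 ± 0.09, p = 0.00806). RT1-Da, an MHC class II chain, ranged from 33.0 to 113 and from 61.3 to 157.6 (-0.76 ± 0.26, p = 0.00839). Tlr2 and Myd88, of toll-like receptor signalling, had log2 fold changes of -0.29 ± 0.13 and -0.25 ± 0.10. The ranges still overlapped. Reads as a covariate were fitted only in all 17 rats, 10RT48 among them, so that fit cannot show the part of depth without this rat. In it the list medians were 0.12 for microglia, 0.31 for MHC class II and 0.25 for complement. They were -0.03 for brain macrophages and 0.08 for interleukin and inflammasome genes, and no gene of these lists was called. The part of depth without 10RT48 was not tested.

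**Figure D4:**
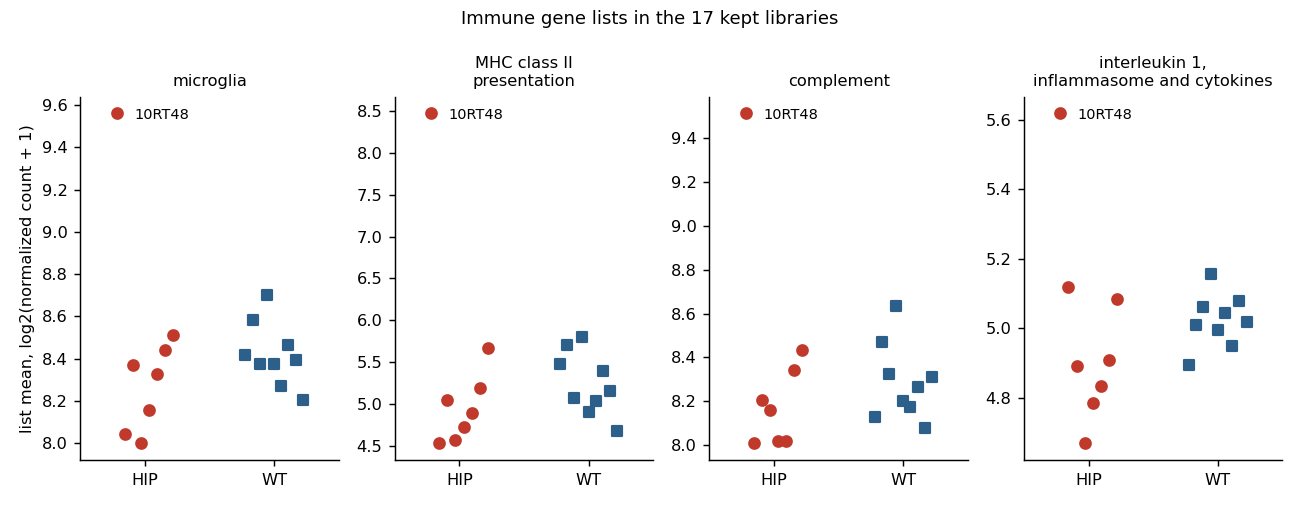
Mean log2(normalized count + 1) of 4 immune gene lists in the 17 kept rats, circles HIP and squares WT; each panel has its own y axis. HIP rat 10RT48 stands above all others in each panel (9.56 for microglia, 8.48 for MHC class II, 9.51 for complement, 5.62 for interleukin and inflammasome genes).

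Other lists held few calls. Choroid plexus genes were low (mean log2 values of 2.33 to 4.14). Of 13, 2 were called, both lower in HIP, beside 2.20% of all tested genes called lower. They were Ttr, with a median of 0.6 in HIP and 3.31 in WT (-1.13 ± 0.51, p = 0.0389), and Steap1 (6.55 ± 2.43 vs. 10.3 ± 4.56, -0.55 ± 0.26, p = 0.049). Neither Ttr nor Steap1 was called with the striatum and bulb list means as covariates (p = 0.0506 and 0.0523). The same held with estimated reads as the covariate (p = 0.541 and 0.191). Without covariates, none was called among genes of the interferon response (17), cilia and ependyma (13), meninges (13), blood (7), immunoglobulin and B cells (3), hippocampus (5), thalamus and hypothalamus (9), nitric oxide and arginase (11), immediate early genes (12), the circadian clock (16), the glucocorticoid response (9), lysosome and proton pump (19) or olfactory bulb (7). With the striatum and bulb list means as covariates, 4 of the 13 meningeal genes were called lower (median -0.25), in a fit that called 6.99% of all genes. In the other lists of this group that fit called at most 1 gene in either direction. With estimated reads as the covariate, 2 of the 7 blood genes were called lower, in a fit that called 270 genes, and none of the other lists of this group held a call. Ighm, the heavy chain of IgM, ranged from 4.21 to 133.7 in HIP and from 15.3 to 39.5 in WT (0.16 ± 0.45). The 9 cerebellar and 4 pineal genes were not tested as results, since the libraries were chosen on such genes.

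**Figure D5:**
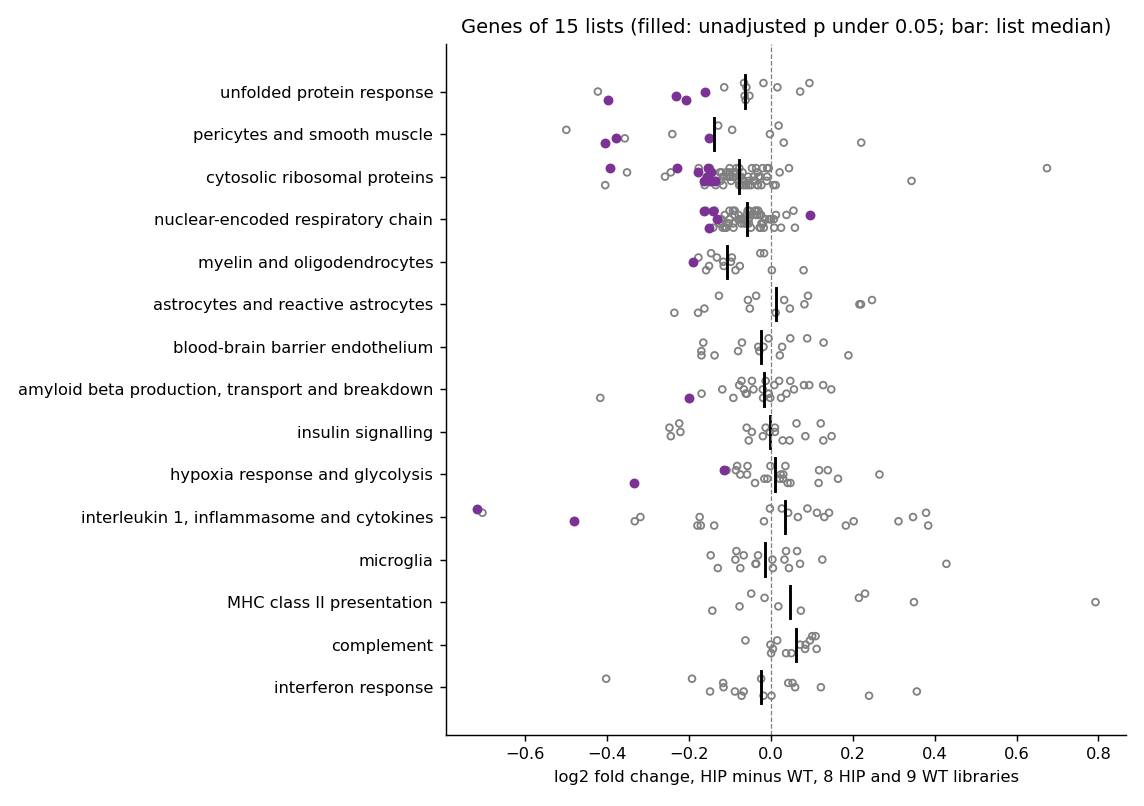
Log2 fold change (x axis, HIP minus WT, 17 kept libraries) of every tested gene of 15 lists; filled points have an unadjusted p under 0.05 and bars are list medians. The called genes of the unfolded protein response, smooth muscle and ribosomal lists lie on the lower side. The medians of all tested genes of these lists are -0.06, -0.14 and -0.08.

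Putting the 3 libraries back changed the spread and individual genes. With all 20 libraries the median residual SD rose from 0.22 to 0.30 on the log2 scale and 439 of 17085 genes (2.57%) had an unadjusted p under 0.05, again 0 after adjustment; the SD was smaller without the 3 libraries in 13661 of 16976 genes (80.5%). Rat 10RT43 alone brought it to 0.29, 10RT46 to 0.24 and 12RT23 to 0.23. Both fits share 17 libraries, so values are given side by side. The log2 fold change of Gabrr2 was 0.70 in the kept and 1.14 in all 20 libraries, with 0 counts in rat 10RT43, and that of Fam81a was 0.19 and 0.56. Thrb had 0.19 and 0.47. Agt had -0.44 and -0.40, but its p went from 0.000455 to 0.0606, and rats 10RT43 and 10RT46 held 5081 and 3143 normalized counts. Rpgrip1 had -1.47 and -0.70, and Ttr -1.13 and -0.23. Sdr42e1 (0.68 and 0.82), Spg7 (0.24 and 0.23), Cpxm2 (0.69 and 0.75), Marchf11 (-0.54 and -0.62) and Ccdc88c (-0.29 and -0.34) had an unadjusted p under 0.05 with both sets. Icam5, a neuronal adhesion molecule named here after its values were seen, was at 3639 ± 289.9 vs. 4184 ± 361 in the kept rats (-0.20 ± 0.06, p = 0.00337) and had a log2 fold change of 0.56 in all 20, where rat 10RT43 held 17.9 normalized counts.

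Covariates changed which genes were called. With estimated reads in the fit, 270 genes had an unadjusted p under 0.05, and of the 60 named genes called above, 48 lost the call. Gabrr2 (0.67, p = 0.0234), Sdr42e1 (0.61, p = 0.0448), Papolg (0.27, p = 0.027), Cpxm2 (0.97, p = 0.0204), Ccdc88c (-0.34, p = 0.0112), Bcam (-0.32, p = 0.0313), Rpgrip1 (-1.55, p = 0.0196) and Cdh22 (-0.26, p = 0.0236) were among those that kept it, while Agt went to -0.26 (p = 0.138), Spg7 to 0.18 (p = 0.0995) and P2ry1 to -0.53 (p = 0.139). With the striatum and bulb list means in the fit, the median residual SD fell to 0.19, 54 of the 60 kept the call, and Bcam had the smaller p (-0.37, p = 3.3e-05), with 0 genes called after adjustment (smallest adjusted p = 0.28).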

How the data were processed

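Total RNA of rat brain was sequenced from SMARTER mRNA-Seq libraries on an Illumina HiSeq instrument. The authors aligned reads to rn7 in Partek Flow (10.0.22.0228, STAR 2.7.8a per the labels), counted them on Ensembl genes and applied DESeq2 size factors. The deposited unit is a signal, normalized counts of 17134 genes that are not whole numbers, so the main test was not a count test, and voom on estimated reads was an alternative. Estimated reads are the library total divided by the value of 1 read, the step whose whole multiples (within 0.02 reads) held 81.2% to 83.4% of values below 100; the precision of low values is about 1 read.

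Groups were taken from the labels. Each library is labelled as a separate rat. The libraries, gene lists and named genes were chosen with earlier results of these data known. Genes averaging 1 or more in the kept libraries were tested with limma 3.58.1 in R 4.3.3 (lmFit, eBayes with trend, two-sided) on log2(normalized count + 1), with Benjamini-Hochberg adjustment; fold changes of low genes are understated on this scale. "Called" means an unadjusted p under 0.05, the threshold of the study. Lists were counted and not tested. Depth was compared by an exact permutation test. The fit was tested on simulated data. Python 3.11.15, numpy 2.4.6, scipy 1.17.1, pandas 2.3.3 and matplotlib 3.10.9 were used.

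Named are the 10 genes higher and the 10 lower with the smallest p, the 5 and 5 with the largest change (mean of at least 10), all members of 2 lists (amylin and CGRP receptors; proteins the paper assays or discusses, among them Apoe and Nlrp3), up to 4 called members of each other list, and 10 genes named for all 20 libraries. For 59 of 674 listed genes no row of that symbol was found, and they are not analysed here. Alternatives were pseudocounts of 0.1 and 5, other filters, scalings and marker limits, robust fits, sample weights, voom, covariates, libraries of amylin knockout (AKO) rats in the fit and each rat left out. The tissue is frontal cortex in the labels, and the paper names cerebral cortex and hippocampus.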

Additional observations from a re-analysis of the deposited data

Results flagged for a closer look

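Rats are given here whose distance from the next rat of the group was over Dixon's 95% critical value (0.526 of the range for 8 rats, 0.493 for 9). Of 230 groups of values examined, 22 held such a rat, and about 1 in 20 groups, 11.5, would by chance. Rat 10RT48 (HIP) accounted for 7 of the 22: its Cd68 was 259.7 normalized counts, its Nlrp3 103 and its Gapt 57.6, and its mean log2 values were 9.56 for the microglia list, 8.48 for MHC class II, 9.51 for complement and 5.62 for interleukin and inflammasome genes.

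Among the other HIP rats, 10RT49 was highest for Adamts9 (64.9 normalized counts) and P2ry1 (56.2), 10RT37 was highest for Sqle (1443) and Arg2 (114), 10RT53 was lowest for Rpl8 (3270.2), and 10RT52 was lowest for the list of blood cells (4.94). Among WT rats, 10RT50 was highest for Sdr42e1 (143.2) and lowest for Ramp3 (126), 10RT47 was highest for Dtl (31.5) and Il1b (8.59), 10RT57 for Naa80 (408), 10RT44 for Bcam (633) and 10RT51 for Calcrl (143.2). Rat 10RT51 was also highest for the astrocyte list (9.64) and for the genes of proteins that the paper assays or discusses (8.67).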

How the results depend on the processing

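No alternative gave a gene with an adjusted p under 0.05. The count of 642 genes at an unadjusted p under 0.05 (269 higher, 373 lower) became 372 (172, 200) with rat 10RT46 put back, 270 (116 of them lower) with estimated reads as a covariate, 1186 (555, 631) with the striatum and bulb lists as covariates and 295 (103, 192) with the 10 libraries of amylin knockout (AKO) rats in the fit. It was 439 with all 20 libraries, 779 with 10RT43 and 12RT23 put back, 567 with 10RT43 alone and 817 with 12RT23 alone (these last were added after seeing the data), and between 565 and 770 under the other settings. Leaving out each rat in turn gave 511 to 876 genes (205 to 334 higher, 301 to 542 lower), the most without HIP rat 10RT54. The log2 fold change of Ttr reversed to 0.29 with 10RT46 put back. The share of higher genes went from 41.9% to 57.04% with reads as a covariate. The cause was not tested. Intervals were widest for genes with a mean under 10 normalized counts, and whether depth or the spread between rats set them was not tested. No paired analysis was possible because the labels give no replicate numbers shared between the groups.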
